A study of Homo sapiens with 8 samples.

Results

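Open chromatin was examined at 9 genes that drive entry into the cell cycle: MYC and MYCN, the D cyclin genes CCND1, CCND2 and CCND3, the E cyclin genes CCNE1 and CCNE2, and the kinase genes CDK4 and CDK6. They are 9 of 19974 protein-coding genes of the RefSeq annotation used. A peak of an ATAC-seq list was counted for a gene when its summit lay inside the gene, or within 100 kb of either end with that gene the nearest protein-coding one. By this rule the genes held 45 of 41086 peaks with the EZH2 inhibitor, 47 of 47161 with the CBP inhibitor, 51 of 51095 with forskolin and 55 of 61016 with vehicle. All positions are on hg38. Peaks were assigned by position alone, while the 9 genes were chosen with earlier results of these data known.

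The cells were NCI-H295R, an established line from a human adrenocortical carcinoma. ATAC-seq marks open chromatin by where the transposase Tn5 inserts adapters. EZH2i cells received 62 µM EPZ-6438, an inhibitor of the histone H3 lysine 27 methyltransferase EZH2, for 96 h, and CBPi cells 26 µM PRI-724, described as an inhibitor of the coactivator CBP, for 96 h. Labels call both concentrations IC-50 doses. FSK cells were kept in vehicle for 48 h and then exposed to 10 µM forskolin, an activator of adenylyl cyclase, for 48 h. Vehicle cells received DMSO for 96 h. Each group had 2 libraries of 50000 cells per library, called biological replicates, and 1 deposited peak list, which leaves no spread between replicates to compare and no test between groups. The same vehicle list is the reference for all 3 treatments, so their losses are not independent of one another. A single cell line stands for the tumour type, and a weaker peak in a bulk culture cannot tell fewer open cells from less opening per cell.

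MYC and MYCN encode transcription factors that pair with MAX on E-box DNA and raise the transcription of growth genes. Cyclins D1 to D3 bind the kinases CDK4 and CDK6, which phosphorylate the retinoblastoma protein and release E2F factors, and E2F factors in turn activate genes that include the E cyclins, partners of CDK2. MYC and CCND1 are known targets of Wnt/β-catenin signalling, a pathway often activated in adrenocortical carcinoma.

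The list lengths set the scale for every comparison. The vehicle list was the longest, and the lists covered 31.5 Mb (EZH2i), 36.68 Mb (CBPi), 35.74 Mb (FSK) and 42.73 Mb (vehicle). Peaks within 1 kb of a gene's annotated end were present for 7 of 12 adrenocortical marker genes with EZH2i, 7 with CBPi, 9 with FSK and 8 with vehicle. Over all 19974 protein-coding genes, 13509 had such a peak with vehicle, a share close to that of these markers. The marker count therefore does not set them apart from other genes. NR5A1, STAR, CYP11A1 and CYP17A1 had such a peak in all 4 lists, and HSD3B2, CYP11B1 and MRAP had none in any. For markers of other cells the numbers were 2 of 5 chromaffin genes in each list, 1 of 4 endothelial genes in each list, 1 or 2 of 5 fibroblast genes and 0 or 1 of 5 immune genes.

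Promoter sequence was matched for 5 of the 9 genes, as 8 annotated promoters from 250 bases before to 50 bases after a transcript start (RefSeq, GRCh38.p14). Of these 8 promoters, 7 lay wholly under a peak in every list, the exception being the CCND3 promoter at 41939156 to 41939455, which had no peak in any. The 6 printed here are among these 7 open promoters. The open promoter left out belongs to a second CDK6 start. In vehicle its peak was exceeded by 5.37% of the list, against 15.4% for the peak over the printed CDK6 start. It held 0 matches to the motifs below. Letters in capitals mark matches, on either strand, to an E-box (CACGTG), a cAMP response element (TGACGTCA), a TCF/LEF core (CTTTGAA or CTTTGAT) or an E2F core (TTTCCCGC, TTTCGCGC, TTTGCCGC or TTTGGCGC).
MYCN (chr2:15940300-15940599, plus strand): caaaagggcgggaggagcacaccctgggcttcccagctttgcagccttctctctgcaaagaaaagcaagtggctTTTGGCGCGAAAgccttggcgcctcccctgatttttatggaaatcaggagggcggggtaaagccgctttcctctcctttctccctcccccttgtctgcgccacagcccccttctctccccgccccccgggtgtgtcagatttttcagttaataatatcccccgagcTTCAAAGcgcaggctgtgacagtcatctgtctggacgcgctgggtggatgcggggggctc
CCND3 (chr6:42048639-42048938, minus strand): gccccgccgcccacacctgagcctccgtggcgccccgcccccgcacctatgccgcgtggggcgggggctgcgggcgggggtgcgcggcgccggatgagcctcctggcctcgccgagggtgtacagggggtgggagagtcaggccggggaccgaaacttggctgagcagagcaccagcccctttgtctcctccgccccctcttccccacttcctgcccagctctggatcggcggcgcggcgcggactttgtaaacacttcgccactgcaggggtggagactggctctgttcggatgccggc
CCND3 (chr6:41941759-41942058, minus strand): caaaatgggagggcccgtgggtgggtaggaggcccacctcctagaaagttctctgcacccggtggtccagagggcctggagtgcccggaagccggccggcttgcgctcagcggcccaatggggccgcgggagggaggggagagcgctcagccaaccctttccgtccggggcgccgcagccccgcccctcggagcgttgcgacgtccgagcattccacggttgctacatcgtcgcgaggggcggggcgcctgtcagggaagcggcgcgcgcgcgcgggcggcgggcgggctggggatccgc
CCNE1 (chr19:29811741-29812040, plus strand): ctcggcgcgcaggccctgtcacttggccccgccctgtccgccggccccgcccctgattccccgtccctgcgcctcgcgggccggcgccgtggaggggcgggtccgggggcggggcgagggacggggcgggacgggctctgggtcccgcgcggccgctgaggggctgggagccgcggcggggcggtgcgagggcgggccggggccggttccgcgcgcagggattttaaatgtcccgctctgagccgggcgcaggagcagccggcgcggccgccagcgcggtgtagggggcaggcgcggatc
CDK4 (chr12:57752261-57752560, minus strand): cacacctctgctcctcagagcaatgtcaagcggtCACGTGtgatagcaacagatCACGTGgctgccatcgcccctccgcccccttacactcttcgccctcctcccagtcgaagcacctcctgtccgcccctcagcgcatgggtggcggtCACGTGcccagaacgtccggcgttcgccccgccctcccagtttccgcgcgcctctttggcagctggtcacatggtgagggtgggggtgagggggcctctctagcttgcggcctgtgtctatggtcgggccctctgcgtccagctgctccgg
CDK6 (chr7:92836524-92836823, minus strand): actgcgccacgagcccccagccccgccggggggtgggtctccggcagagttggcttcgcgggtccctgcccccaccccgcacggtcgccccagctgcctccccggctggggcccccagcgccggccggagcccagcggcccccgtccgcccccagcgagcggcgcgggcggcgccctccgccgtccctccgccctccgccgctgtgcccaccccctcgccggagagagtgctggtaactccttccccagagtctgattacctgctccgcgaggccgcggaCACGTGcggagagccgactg
CDK4, a known MYC target, carries 3 E-boxes, 216, 196 and 101 bases before its start, and the printed CDK6 promoter carries 1, 30 bases after its start. An E-box occurred in 7.26% of the 35116 promoters of the table. In MYCN a pair of E2F cores overlap in one run, beginning 176 and 172 bases before the start, and a TCF/LEF core begins 10 bases before it. E2F cores occurred in 3.31% of promoters and TCF/LEF cores in 6.86%. The promoters shown for CCND3 and CCNE1 held none of the 4 motifs, and none of the 6 held the cAMP response element, found in 1.85% of all promoters. GC content of the 6 ran from 58.7% at MYCN to 81.0% at CCNE1. A match is a string of letters and not evidence of binding.

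Most member sites were open in all 4 lists. Merged across the lists, the peaks formed 61 sites, of which 32 (52.5%) had a peak in every list, against 31427 of 71935 sites genome-wide (43.7%). The sites ranged from 1 at CDK4 to 16 at MYC, and the number open in all 4 lists from 1 of 5 at MYCN and 1 of 4 at CCND1 to 7 of 10 at CDK6 and 9 of 16 at MYC. Summits inside the genes made up 20 of 45 peaks with EZH2i, 21 of 47 with CBPi, 20 of 51 with FSK and 22 of 55 with vehicle. Rank is given as the percent of a list's peaks with a larger area, area being the signal value in the authors' lists. It is taken here to be Genrich's area of significance under the peak, which the sources used here do not state, and ranks from lists of different length do not measure a change. The largest 10% by area held 6 of 45 member peaks with EZH2i (13.3%), 7 of 47 with CBPi (14.9%), 8 of 51 with FSK (15.7%) and 10 of 55 with vehicle (18.2%). In vehicle the median area was 834.6 for member peaks and 581.4 for all peaks, and member peaks had the larger median in each treated list too. No expectation from area was computed for sites. The share of sites open in all 4 lists therefore does not set the members apart from peaks of their size.

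A vehicle peak was called lost when no peak of the treated list covered any base of it, and a treated-list peak gained when no vehicle peak did. EZH2i lost 14 of 55 member peaks (25.5%, Wilson 95% interval 15.8 to 38.3), against 37.7% of all vehicle peaks and 16.3 peaks expected from the members' areas. CBPi lost 10 of 55 (18.2%, 10.2 to 30.3), against 30.6% of all peaks and 13.2 expected. FSK lost 12 of 55 (21.8%, 12.9 to 34.4), against 30.2% of all peaks and 12.8 expected. As shares the expectations were 29.7% with EZH2i, 23.9% with CBPi and 23.3% with FSK, each inside the interval of its observed share, so the members lost peaks at about the rate of peaks of their size. Gained peaks numbered 4 of 45 with EZH2i (8.89%, 3.51 to 20.7, all peaks 6.98%), 2 of 47 with CBPi (4.26%, 1.17 to 14.2, all peaks 10.7%) and 6 of 51 with FSK (11.8%, 5.51 to 23.4, all peaks 15.9%).

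The lost member peaks came mostly from the smaller-area 50% of the vehicle list. Of the 31 member peaks in the larger-area 50% of the vehicle list, 0 were lost with EZH2i (7.62% of all vehicle peaks in that part), 0 with CBPi (5.45%) and 1 with FSK (5.91%), counts too small to set the members apart from these shares. The largest lost peak stood at 2.56 times the smallest area of the vehicle list for EZH2i, 2.54 times for CBPi and 2.99 times for FSK. Of 10 member peaks within 1 kb of a gene end, EZH2i lost 1, at CCNE1 (all such peaks 8.94%), CBPi 0 (4.51%) and FSK 1, at CCND1 (8.57%). Among the other 45 the losses were 13 with EZH2i (28.9%, Wilson interval 17.7 to 43.4, all distal peaks 45.8%). They were 10 with CBPi (22.2%, 12.5 to 36.3, against 38%) and 11 with FSK (24.4%, 14.2 to 38.7, against 36.4%). With EZH2i and CBPi the share of all distal peaks lay above the interval. No expectation from area was computed for distal peaks alone, so these shares do not set the members apart from distal peaks of their size.

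**Figure D1:**
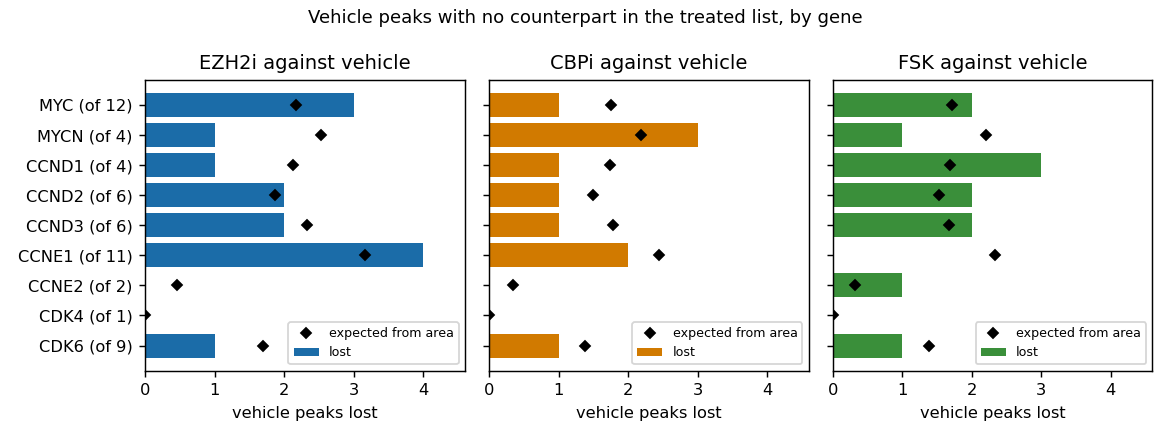
Bars give, for each gene, the number of vehicle peaks with no counterpart in the EZH2i, CBPi or FSK list, and black diamonds the number expected from the peaks' areas; the vehicle total stands beside each name. Within the FSK panel CCND1 and CCNE1 differ most from their diamonds, at 3 lost against 1.69 expected and 0 lost against 2.33 expected. In the EZH2i panel MYCN stands at 1 lost against 2.53 expected. At equal list length FSK lost 1 of 2 CCND1 peaks and 3 of 10 CCNE1 peaks, the same counts as EZH2i.

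MYC carried one of the largest peaks of the genome in every list. The peak over the lower end of the gene (127735434 to 127742951 on chromosome 8) spanned 4270 bp with EZH2i, 4378 bp with CBPi, 4300 bp with FSK and 4637 bp with vehicle. By area it ranked 13 of 41086 with EZH2i, 22 of 47161 with CBPi, 108 of 51095 with FSK and 13 of 61016 with vehicle. The percent of larger peaks was 0.0292 with EZH2i, 0.0445 with CBPi, 0.209 with FSK and 0.0197 with vehicle, so every list placed it above 99% of its peaks. In vehicle it ran from 127734887 to 127739523, covering the lower part of the gene body. A smaller neighbour at 127733812 to 127734480 in vehicle was also kept in each treated list, at 548 bp with EZH2i, 647 bp with CBPi, 784 bp with FSK and 669 bp with vehicle.

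Around MYC the vehicle list held 12 peaks, and 9 sites were open in all 4 lists. These included a pair below the gene at 127677869 to 127680033 and 127686914 to 127688249 and a peak above it at 127753610 to 127755006, in vehicle coordinates. The pair below was exceeded by 19.1% and 30.3% of peaks with EZH2i, by 13.3% and 16.8% with CBPi, by 8.02% and 8.91% with FSK and by 6.71% and 9.28% with vehicle. The peak above was exceeded by 10.4% with EZH2i, 7.56% with CBPi, 6.73% with FSK and 5.83% with vehicle. All 3 stood in the larger-area 50% of each list.

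MYC lost 3 vehicle peaks with EZH2i, with 2.17 expected from area, 1 with CBPi (1.76 expected) and 2 with FSK (1.71 expected). A peak at 127776824 to 127777069, 246 bp wide and near the smallest of the vehicle list (89.5% larger), was absent from all 3 treated lists. Another at 127699510 to 127700098 was absent with EZH2i and FSK and present with CBPi. The third EZH2i loss, at 127683908 to 127684327, had a counterpart of 518 bp with CBPi and of 560 bp with FSK, against 420 bp in vehicle. The kept MYC peaks were narrower than in vehicle at 9 of 9 with EZH2i (median width ratio 0.721, range 0.409 to 0.921), at 8 of 11 with CBPi (median 0.944) and at 7 of 10 with FSK (median 0.911). Over all kept peaks of the genome the share that narrowed was 73.6% with EZH2i (median ratio 0.894), 56.8% with CBPi (0.973) and 65.7% with FSK (0.928).

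Some gained MYC peaks sat close behind the gene and others, with FSK, far below it. A peak just above the upper end, 244 bp wide with EZH2i, 229 bp with CBPi and 256 bp with FSK, had no vehicle counterpart. Its summit lay 236, 233 and 225 bp past the annotated end, and its standing differed: 93.7% of peaks were larger with EZH2i, 87.6% with CBPi and 48.1% with FSK. In the FSK list it ran from 127743042 to 127743297, and it would count as a gained gene-end peak but for the peak that MYC already had at its lower end. A further peak at 127746920 to 127747304 in FSK was exceeded by 44.8% of FSK peaks. The EZH2i list held its counterpart at 127746913 to 127747272, exceeded by 99.6%, while the CBPi and vehicle lists had none. Far below the gene, 90997 and 66563 bp from its lower end, FSK also had peaks at 127644298 to 127644683 and 127668678 to 127669159 that no other list held, with 84.4% and 90.1% of FSK peaks larger. MYC thus gained 2 peaks of 11 with EZH2i (0.681 expected), 1 of 12 with CBPi (0.731 expected) and 4 of 14 with FSK (1.5 expected). The vehicle peak at the far upper side, 127794213 to 127795855, with its summit inside the noncoding gene PVT1, was kept in every list. It spanned 904 bp with EZH2i, 1419 bp with CBPi, 722 bp with FSK and 1643 bp with vehicle.

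**Figure D2:**
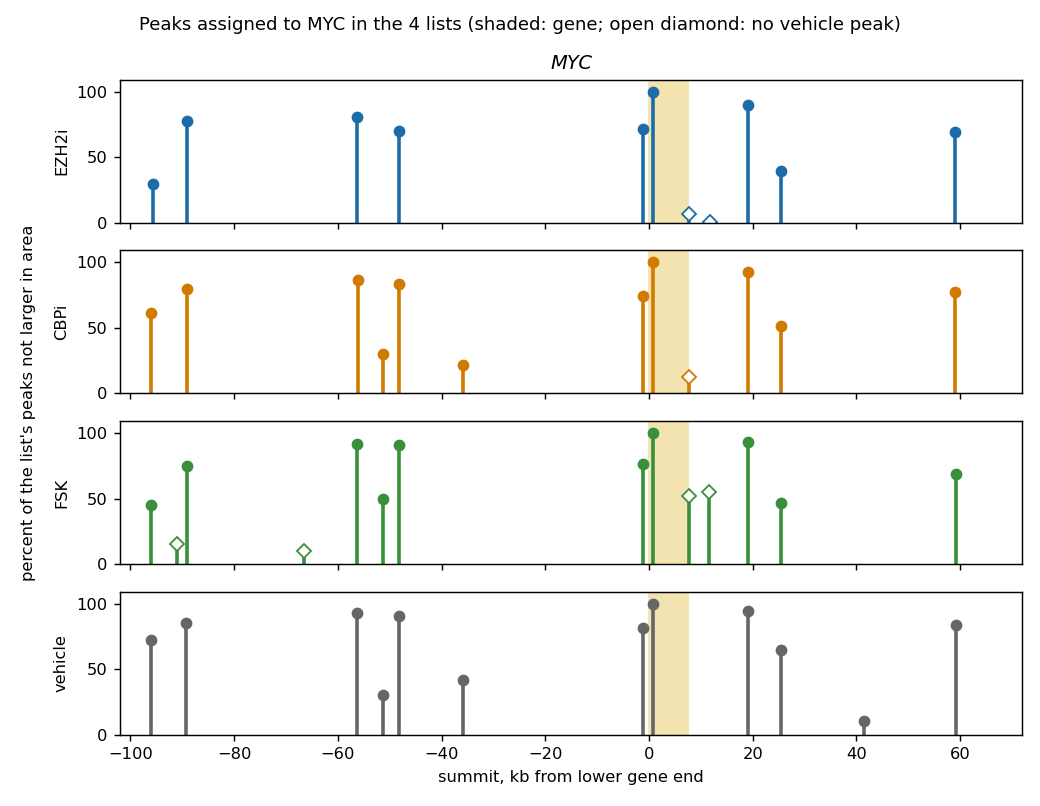
Each stem is a peak assigned to MYC, placed by its summit in kb from the lower end of the gene; its height is the percent of that list's peaks that are not larger in area, and rows are EZH2i, CBPi, FSK and vehicle. Open diamonds mark peaks with no vehicle counterpart: just behind the gene they stand low with EZH2i and CBPi and near the middle with FSK, where 48.1% and 44.8% of peaks are larger.

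MYC contributed the peaks nearest to the 100 kb limit in 3 lists. The outermost, with its summit 96112 bp from the gene with CBPi, 96097 bp with FSK and 96052 bp with vehicle, was 1159, 737 and 1599 bp wide. The EZH2i list's outermost member peak was one of 370 bp near MYCN, at 97303 bp. Just beyond the limit, the nearest peaks lay 108645 bp from MYC with EZH2i (982 bp wide), 108656 bp with CBPi (423 bp) and 108645 bp with FSK (918 bp), and 109189 bp from MYCN with vehicle (454 bp).

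MYCN, which acts in place of MYC in neural crest and other embryonic tissues, was open at its promoter in every list. The peak over the sequence printed above spanned 1760 bp with EZH2i, 1281 bp with CBPi, 1301 bp with FSK and 1312 bp with vehicle (15939550 to 15940861 on chromosome 2), with 15.6%, 34.2%, 15% and 16.4% of those lists larger. It was widest in the EZH2i list and of similar width in the other 3. Its summit in vehicle lay 700 bp before the start, inside the antisense noncoding gene MYCNOS. The other vehicle peaks at MYCN were weak. The one inside the gene, at 15942079 to 15942796, was absent with CBPi, spanned 1054 bp with EZH2i and 609 bp with FSK, and 718 bp with vehicle. Its standing was 45.3% larger with EZH2i, 68.0% with FSK and 93.5% with vehicle. The peak at 15984311 to 15984701 was 742 bp wide with EZH2i, against 391 bp with vehicle, and absent with CBPi and FSK. A last peak, 16034150 to 16034357, was lost with EZH2i and CBPi and kept with FSK. In all, MYCN kept 3 of 4 peaks with EZH2i (2.53 losses expected), 1 of 4 with CBPi (2.19 losses expected) and 3 of 4 with FSK (2.2 losses expected). The 3 peaks kept with EZH2i were all wider than in vehicle, with ratios of 1.34 to 1.9, against 26% of all peaks kept with EZH2i. Those starting at 15942079 and 15984311 were among the smaller vehicle peaks, with 93.5% and 87.4% of that list larger. EZH2i gained 1 of 4 peaks at MYCN (0.299 expected), at 15843159 to 15843528, exceeded in area by 94.2% of that list.

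The D cyclin genes lost peaks with each treatment, at shares whose intervals include those of all vehicle peaks. Together they lost 5 of 16 vehicle peaks with EZH2i (6.33 expected from area), 3 of 16 with CBPi (5.03 expected) and 7 of 16 with FSK (4.91 expected). Gains were 0 of 11 peaks with EZH2i (0.755 expected), 0 of 13 with CBPi (1.34 expected) and 0 of 9 with FSK (1.77 expected). The shares gained over all peaks were 6.98%, 10.7% and 15.9%, and these counts are too small to set the genes apart from them. The share lost was 31.25% with EZH2i (Wilson interval 14.16 to 55.6), against 37.7% of all vehicle peaks. With CBPi it was 18.75% (6.592 to 43.01), against 30.6% of all vehicle peaks. The share lost with FSK was 43.8% with a Wilson interval of 23.1 to 66.8, which includes the 30.2% of all vehicle peaks. When every list was shortened to its 41086 peaks of largest area, the losses were 3 of 12 with EZH2i, 2 of 12 with CBPi and 5 of 12 with FSK. Shares over all peaks were not computed for the shortened lists, here or at the single genes below.

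CCND1 was the one member whose gene-end peak was missing from a treated list. The peak on the lower end of the gene (69641156 to 69654474 on chromosome 11) spanned 776 bp with EZH2i and 517 bp with CBPi, was not called with FSK, and spanned 388 bp with vehicle (69641030 to 69641417). It was exceeded in area by 41.6% of peaks with EZH2i, 54.2% with CBPi and 71.6% with vehicle. The peak was therefore wider in both inhibitor lists than in vehicle, and absent from the FSK list. It also fell among the vehicle peaks left out when lists were shortened to equal length. With a window of 2 kb in place of 1 kb, CCND1 counted as having a gene-end peak with FSK. That was the intragenic peak at 69642615 to 69643589, while the peak on the lower end stayed absent. Genome-wide, 4.94% of genes with a vehicle gene-end peak had none with FSK, 4.6% with EZH2i and 2.35% with CBPi. Among the 9 members the numbers were 0 with EZH2i, 0 with CBPi and 1 with FSK. CCND3 enters this count only through a peak whose vehicle summit lies inside the neighbouring gene TAF8.

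Of the other CCND1 peaks, that at 69639045 to 69639458, just below the gene, was kept at 442 bp with EZH2i and 345 bp with CBPi, missing with FSK, and 414 bp wide with vehicle. The intragenic peak at 69644263 to 69644809 was missing from all 3 treated lists. Only the peak at 69642755 to 69643608 was kept throughout, at 905 bp with EZH2i, 715 bp with CBPi, 975 bp with FSK and 854 bp with vehicle. FSK thus lost 3 of 4 CCND1 peaks, with 1.69 expected. With lists of equal length CCND1 had 2 vehicle peaks, and 1 was lost with each treatment, so 2 of the 4 vehicle peaks, the gene-end peak among them, were too small to remain there.

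CCND2 was open at its lower end in all lists. This peak, with its summit in vehicle 4 bp below the gene's end, spanned 734 bp with EZH2i, 766 bp with CBPi, 387 bp with FSK and 917 bp with vehicle (4273461 to 4274377 on chromosome 12). The percent of larger peaks was 47.2 with EZH2i, 39.1 with CBPi, 66.3 with FSK and 30.3 with vehicle. An intragenic peak at 4278046 to 4279372 likewise was narrowest with FSK, at 610 bp, against 1167 bp with EZH2i, 839 bp with CBPi and 1327 bp with vehicle. All 4 CCND2 peaks kept with FSK were narrower than in vehicle, with a median width ratio of 0.554, against 0.84 at 4 kept peaks with EZH2i and 0.794 at 5 with CBPi. FSK lacked the peaks at 4276780 to 4277232 and 4269197 to 4269632. The first of these was the only member peak from the larger-area 50% of the vehicle list lost with any treatment, and in the inhibitor lists it was kept at 245 bp (EZH2i) and 224 bp (CBPi), against 453 bp with vehicle. EZH2i also lacked 4269197 to 4269632, and a peak above the gene at 4307878 to 4308299 was absent with EZH2i and CBPi. In vehicle, 3 of the 6 CCND2 summits lay in the noncoding antisense gene CCND2-AS1.

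The CCND3 peak of largest area lay within the gene, as did those of CCND1 and CCND2 in vehicle. The peak at 41940599 to 41942419 on chromosome 6, over the second CCND3 promoter printed above, spanned 1620 bp with EZH2i, 1728 bp with CBPi, 1785 bp with FSK and 1821 bp with vehicle. The percent of larger peaks was 12.5, 10.9, 11.2 and 9.84 in the same order. The start near the upper end of the gene, the first CCND3 promoter printed, lay under a smaller peak of 520 bp with EZH2i, 613 bp with CBPi, 521 bp with FSK and 551 bp with vehicle (42048444 to 42048994), with 50.0% of the vehicle list larger. The gene-end peak at 42050279 to 42051063 in vehicle has its summit inside the neighbouring gene TAF8 and so is not among the peaks assigned to CCND3. It lies within 1 kb of the CCND3 end, and the gene-end counts and gene-end widths do take it for CCND3. Those values may therefore describe TAF8 as much as CCND3. It spanned 578 bp with EZH2i, 930 bp with CBPi, 505 bp with FSK and 785 bp with vehicle. CCND3 lost a peak at 42007327 to 42007665 in all 3 treated lists. EZH2i also lost 42044243 to 42044510, and FSK lost 42045553 to 42046076, which had 82.0% of EZH2i peaks, 48.9% of CBPi peaks and 58.7% of vehicle peaks above it.

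**Figure D3:**
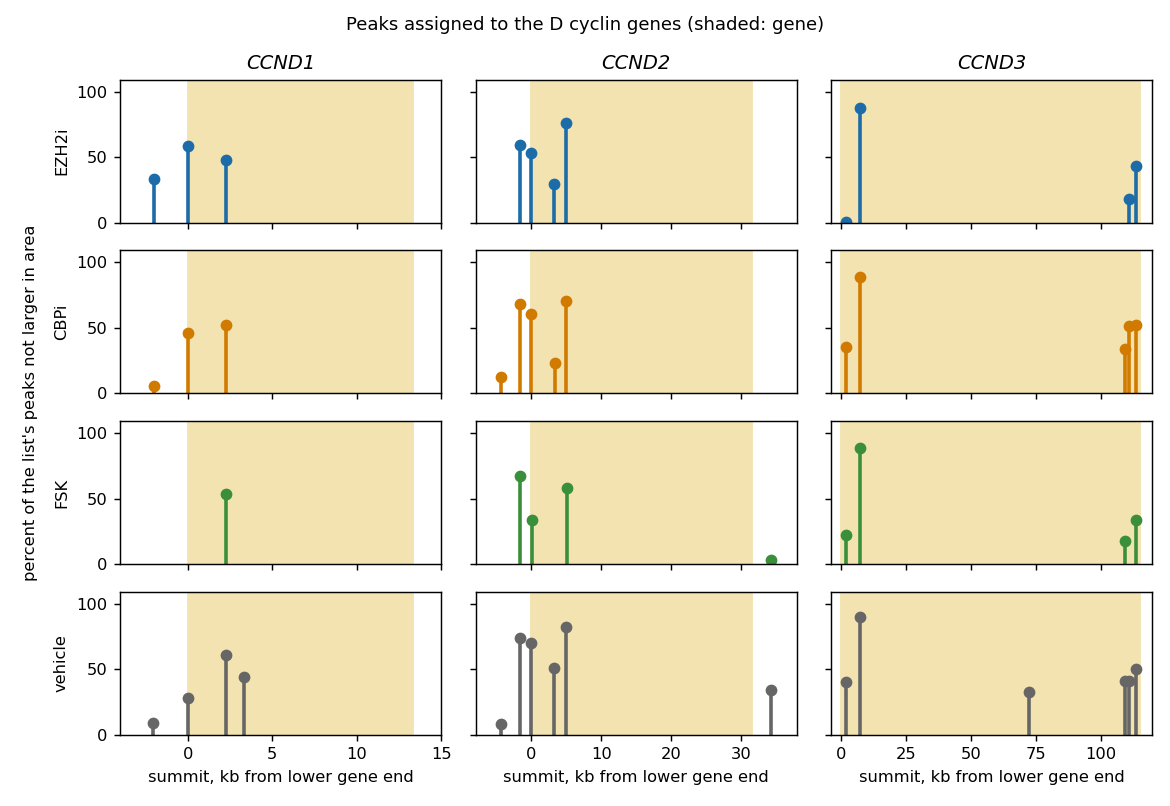
Stems mark peaks of CCND1, CCND2 and CCND3 by summit position in kb from the lower end of each gene (shaded); height is the percent of the list's peaks that are not larger in area, with rows EZH2i, CBPi, FSK and vehicle. The FSK row holds 1 CCND1 peak, against 3 with EZH2i, 3 with CBPi and 4 with vehicle.

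The E cyclin genes held some of the strongest member peaks. CCNE1, whose product activates CDK2 for entry into S phase, had a promoter peak of 1720 bp with EZH2i, 1941 bp with CBPi, 1779 bp with FSK and 1756 bp with vehicle (29811112 to 29812867 on chromosome 19). The percent of larger peaks was 4.39 with EZH2i, 3.92 with CBPi, 3.91 with FSK and 3.99 with vehicle, a nearly level standing. A larger peak lay above the gene at 29844190 to 29846004, with its summit 20965 bp from the end in vehicle. It spanned 1714 bp with EZH2i, 2003 bp with CBPi, 1861 bp with FSK and 1815 bp with vehicle, and only 1.83%, 1.37%, 1.52% and 1.48% of those lists were larger. By area this distal peak exceeded the CCNE1 promoter peak in every list.

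CCNE1 lost 4 of 11 peaks with EZH2i (3.16 expected), 2 of 11 with CBPi (2.44 expected) and 0 of 11 with FSK (2.33 expected). The EZH2i losses were 29796116 to 29796808, 29801173 to 29801603, 29806125 to 29806587 and a peak at 29810448 to 29811002 next to the promoter. With CBPi the last of these was joined to the promoter peak, and the losses were 29806125 to 29806587 and 29858064 to 29858416. Several of the peaks kept with FSK were near the bottom of that list: 91.3%, 94.3% and 96.0% of FSK peaks were larger than those at 29796480 to 29796832, 29801215 to 29801531 and 29865985 to 29866286. Of these low-ranked peaks several left the shortened lists: 3 of 10 CCNE1 vehicle peaks were lost with FSK when lists were of equal length, against 3 of 10 with EZH2i and 2 of 10 with CBPi. The count of 0 lost with FSK thus holds for the lists as deposited and not at equal length. At a CCNE1 peak of 697 bp with EZH2i, 683 bp with CBPi, 868 bp with FSK and 612 bp with vehicle (29805277 to 29805888), 47.9% of peaks were larger with EZH2i, 29.0% with CBPi, 18.9% with FSK and 37.2% with vehicle. FSK gained 1 peak of 266 bp at 29841203 to 29841468, between the gene and the large distal peak, and the inhibitors gained none. Gains were thus 0 of 7 with EZH2i (0.537 expected), 0 of 8 with CBPi (0.651 expected) and 1 of 12 with FSK (2.57 expected).

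CCNE2, a second E cyclin gene and a known E2F target, lay under a peak over its upper end that was 2774 bp wide with EZH2i, 2741 bp with CBPi, 2801 bp with FSK and 2946 bp with vehicle (94894112 to 94897057 on chromosome 8). It ranked 384 with EZH2i, 393 with CBPi, 444 with FSK and 408 with vehicle, within the top 1% of each list. Next to it a peak of 402 bp in vehicle, 94893449 to 94893850, was present with EZH2i at 346 bp and with CBPi at 338 bp and absent with FSK. The E cyclins together lost 4 of 13 peaks with EZH2i (3.61 expected), 2 of 13 with CBPi (2.79 expected) and 1 of 13 with FSK (2.65 expected). At equal list length those counts were 3, 2 and 4 of 12, with no share over all peaks computed.

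CDK4 and CDK6 encode the kinases that the D cyclins activate. CDK4 had a single peak in each list, over the promoter with 3 E-boxes printed above. It spanned 1606 bp with EZH2i, 1752 bp with CBPi, 1554 bp with FSK and 1694 bp with vehicle (57751434 to 57753127 on chromosome 12). The percent of larger peaks was 8.03 with EZH2i, 4.92 with CBPi, 6.85 with FSK and 6.12 with vehicle. The summit lay 357 bp before the start with EZH2i and CBPi, 366 bp with FSK and 363 bp with vehicle.

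CDK6 is a long gene (92604921 to 92836573 on chromosome 7) with a row of intragenic peaks. Of its 9 vehicle peaks 1 was lost with EZH2i (1.69 expected), 1 with CBPi (1.38 expected) and 1 with FSK (1.38 expected). The lost peak was 92621056 to 92621538 with EZH2i and FSK, and 92880107 to 92880486, in the noncoding gene CDK6-AS1, with CBPi. A peak absent from vehicle appeared inside the gene in all 3 treated lists, at 92633326 to 92633637 with EZH2i, 92633169 to 92633698 with CBPi and 92633254 to 92633661 with FSK. It was exceeded by 85.7% of EZH2i peaks, 69.7% of CBPi peaks and 91.5% of FSK peaks. CDK6 thus gained 1 of 9 peaks with EZH2i (0.481 expected), 1 of 10 with CBPi (0.587 expected) and 1 of 11 with FSK (1.78 expected). Sites in all 3 treated lists and not in vehicle numbered 2 of 61 for the members and 634 of 71935 genome-wide (0.881%).

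At the upper end of CDK6, the promoter peak was divided differently among the lists. Vehicle had 1 peak of 1911 bp (92835259 to 92837169), EZH2i 1 peak of 655 bp, and CBPi and FSK a pair each, with the part over the start spanning 877 bp with CBPi and 1220 bp with FSK. The part over the printed promoter was exceeded by 32.5% with EZH2i, 27.2% with CBPi and 23.9% with FSK, against 15.4% with vehicle. The width ratio of 0.343 with EZH2i was the smallest of the 41 member peaks kept with that treatment. A second CDK6 start nearby was covered by a stronger peak of 1728 bp with EZH2i, 1936 bp with CBPi, 1483 bp with FSK and 1939 bp with vehicle (92832585 to 92834523). That peak was exceeded by 7.59%, 5.55%, 11.1% and 5.37% of the lists. The intragenic peak of largest vehicle area among the rest, 92695361 to 92696293, was kept in all lists with 16.7% larger with EZH2i, 17.2% with CBPi, 22.2% with FSK and 13.7% with vehicle. Another, at 92809382 to 92810561, was kept as 1 peak of 698 bp with EZH2i and 1 of 830 bp with CBPi, was split with FSK into parts of 720 bp and 237 bp, and spanned 1180 bp in vehicle.

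**Figure D4:**
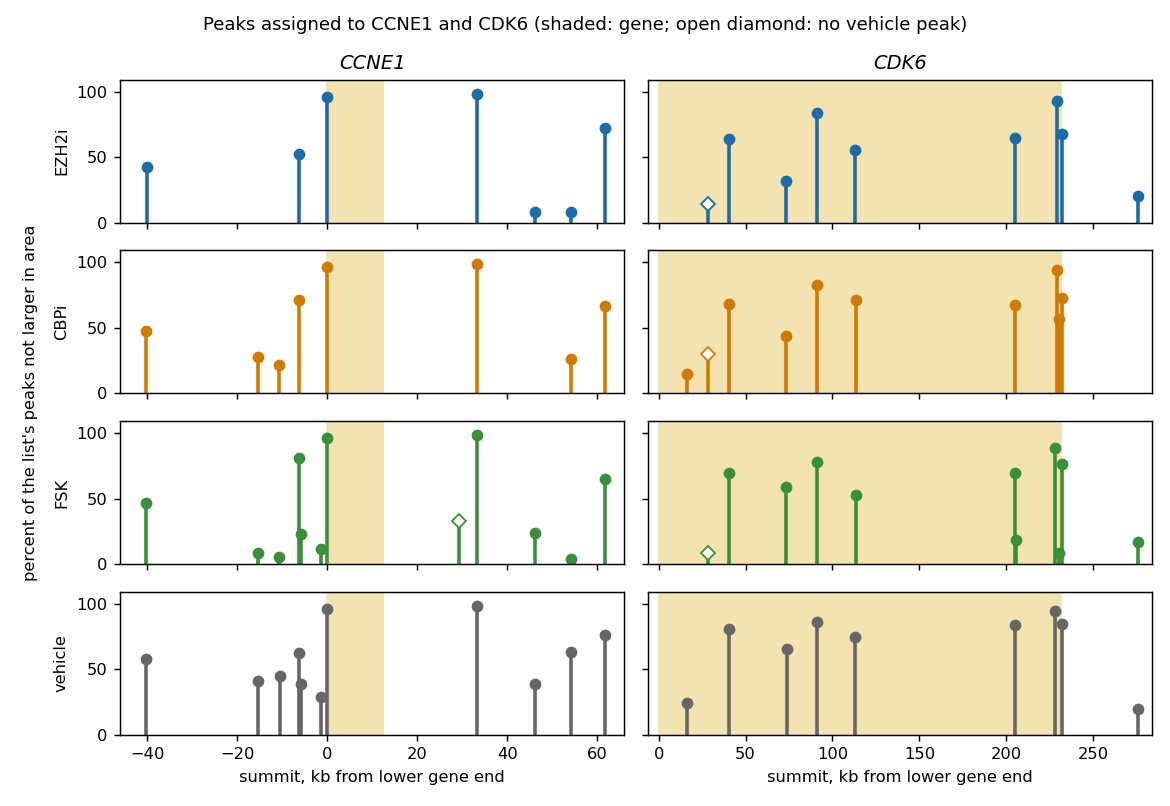
Stems mark peaks of CCNE1 and CDK6 by summit position in kb from the lower end of each gene (shaded); height is the percent of the list's peaks that are not larger in area, with rows EZH2i, CBPi, FSK and vehicle. At CCNE1 the promoter and the distal peak stand near the top in all rows, while 3 of the FSK stems stand under 10%; at CDK6 an open diamond in each treated row marks the peak without a vehicle counterpart.

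Gene-end peaks of MYC, CCNE1, CCNE2 and CDK4 had similar widths in the 4 lists, and those of the other 5 genes varied more. MYCN ran between 1281 bp with CBPi and 1760 bp with EZH2i, and CCND3 between 505 bp with FSK and 930 bp with CBPi. The CCND3 widths are those of the peak with its vehicle summit inside TAF8. CCND1 had 776 bp with EZH2i, 517 bp with CBPi, none with FSK and 388 bp with vehicle. CCND2 ran between 387 bp with FSK and 917 bp with vehicle, and CDK6 between 655 bp with EZH2i and 1911 bp with vehicle. Over the kept member peaks the median ratio of treated to vehicle width was 0.887 with EZH2i (41 peaks, 30 narrower), 0.944 with CBPi (45 peaks, 29 narrower) and 0.896 with FSK (43 peaks, 32 narrower). Over all kept peaks the medians were 0.894 with EZH2i, 0.973 with CBPi and 0.928 with FSK.

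**Figure D5:**
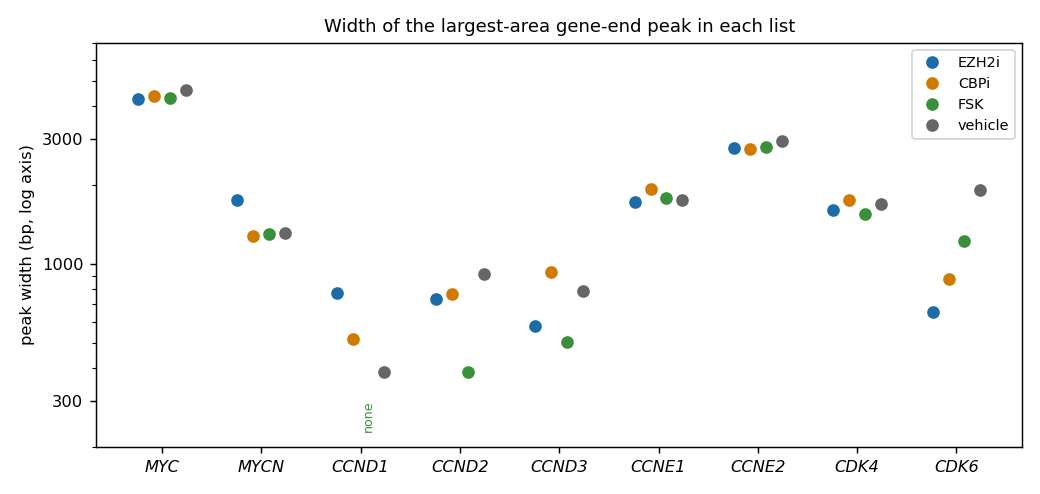
Points give the width in bp (log axis) of the gene-end peak of largest area for each of the 9 genes in the EZH2i, CBPi, FSK and vehicle lists. The CCND3 points are those of a peak whose vehicle summit lies inside the neighbouring gene TAF8. CCND1 has no FSK point; at CDK6 the widths run from 655 bp with EZH2i to 1911 bp with vehicle.

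Other genes of the pathway kept their gene-end peaks with few exceptions, as did genes in general. Genome-wide, 4.6% of genes with a vehicle gene-end peak had none with EZH2i, 2.35% with CBPi and 4.94% with FSK. Of 11 MYC network genes (among them MAX, MNT and MYCL) all had a gene-end peak in every list, and so did 10 RB and E2F genes and 10 further G1 regulators that include CDK2 and CCNA2. Of 7 CDK inhibitor genes 6 had one in the EZH2i list, 6 with CBPi, 5 with FSK and 6 with vehicle. The gene without one with FSK was CDKN1C, which encodes the inhibitor p57, where a 408 bp vehicle peak at 2885552 to 2885959 on chromosome 11 was exceeded by 75.0% of the vehicle list. Peaks lost at the MYC network genes numbered 5 of 29 with EZH2i (6.86 expected), 2 of 29 with CBPi (5.61 expected) and 6 of 29 with FSK (5.6 expected). The CDK inhibitor genes lost 8 of 22 with EZH2i (8.38 expected), 6 of 22 with CBPi (6.95 expected) and 6 of 22 with FSK (6.88 expected). RB and E2F genes lost 6 of 20 with EZH2i (5.43 expected), 4 of 20 with CBPi (4.48 expected) and 3 of 20 with FSK (4.47 expected), and the further G1 regulators lost 7, 5 and 4 of 22 (5.44, 4.36 and 4.35 expected). Peaks gained at the MYC network genes were 3 of 27 with EZH2i, 5 of 31 with CBPi and 1 of 24 with FSK, and at the CDK inhibitor genes 1 of 15, 2 of 18 and 0 of 14. At the RB and E2F genes they were 0 of 16 with EZH2i, 1 of 17 with CBPi and 5 of 22 with FSK (22.7%), and at the further regulators 1 of 14, 5 of 19 (26.3% with CBPi) and 2 of 18. The shares gained over all peaks were 6.98% with EZH2i, 10.7% with CBPi and 15.9% with FSK.

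Genes with a similar standing across the lists were sought for MYC and CCND1, by the largest difference over the 4 lists in the percent of peaks larger than the gene-end peak, among 13904 genes with a gene-end peak in any list. Nearest to MYC were ZNF462, which encodes a zinc finger protein (0.0316 points), RAP2A, a Ras-related GTPase gene (0.0489 points), and CCM2 (0.0939 points). Nearest to CCND1 were IL11, a cytokine gene (6.83 points), FRMD4B (8.92 points) and TNNI3, the cardiac troponin I gene (9.33 points). FRMD4B, like CCND1, had no gene-end peak with FSK, while the IL11 and TNNI3 peaks with FSK were exceeded by 98.6% and 92.3% of that list. A list without such a peak was entered as 100%. With only 4 lists such likeness describes the lists and nothing further.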

How the data were processed

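ATAC-seq of 8 NCI-H295R libraries, 2 per group, was deposited as 4 peak lists, 1 per group. The submitters' processing notes name hg38, Bowtie2, Genrich and deepTools 2.0 with no role or setting. Read filtering, Tn5 shifting, peak threshold and the merging of each pair of libraries: not given in the sources used here. Read depth is unknown, and lower depth can shorten a list and narrow its peaks. The authors' deposited signal, taken to be Genrich's area of significance under a peak, was used to rank peaks within a list. The deposited −log10 p of each summit was left unused.

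Genes came from a RefSeq table of GRCh38.p14, the assembly that hg38 follows, and all 9 matched. Peaks were assigned within 100 kb, and lost or gained peaks were called by an overlap of under 1 bp. Expected numbers sum, over a gene's peaks, the share lost or gained in each of 20 area bins of the whole list. Wilson 95% intervals cover counting error and take peaks to be independent, which neighbours are not. Overlap and assignment were tested on simulated peaks. Peaks named were gene-end peaks and, per member and treatment, up to 3 lost and 3 gained peaks of largest area; others, chosen after their values were seen, include kept peaks with large width ratios. Members and gene lists were chosen with earlier results of these data known. Alternatives changed overlap, list length, distance, nearest-gene rule and gene-end window. Python 3.11.15, pandas 2.3.3, numpy 2.4.6, scipy 1.17.1 and matplotlib 3.10.9 were used.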

Additional observations from a re-analysis of the deposited data

How the results depend on the processing

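Of 51 values recomputed under the alternatives, 47 stayed within the interval of the reported share or at the reported count. CBPi losses came to 9.3% of member peaks (4 of 43) with lists of equal length, against 18.2%. EZH2i losses came to 14.8% (4 of 27) when only peaks inside a gene or within 1 kb of it were taken, against 25.5%. The count of members with a vehicle gene-end peak and none with FSK was 0 in place of 1 with a 2 kb window, which reaches an intragenic CCND1 peak. It was also 0 with lists of equal length, and with a 500 bp window it stayed 1, CCND1. Over all alternatives the share lost ran from 14.8 to 34.5% with EZH2i, 9.3 to 23.6% with CBPi and 19.4 to 30.9% with FSK. The share gained ran from 5.41 to 20% with EZH2i, where lists of equal length gave 9 of 45 gained against 4 of 45, from 4.26 to 9.09% with CBPi (4 of 44 against 2 of 47) and from 7.41 to 13.7% with FSK. Shares over all peaks were not computed under these alternatives. The full-list shares are no reference for them, since a shortened vehicle list leaves fewer peaks to overlap. The counts at equal length therefore do not set the members apart from other peaks. At equal length FSK lost 5 of 12 D cyclin peaks and 4 of 12 E cyclin peaks, against 7 of 16 and 1 of 13 in the lists as deposited. Lost peaks numbered 7 with EZH2i, 4 with CBPi and 10 with FSK at equal length, and 4, 3 and 7 inside the gene or within 1 kb, against 14, 10 and 12; fewer member peaks enter both. Within 50 kb they were 12, 9 and 12, and in the larger-area 50% of each list 7, 4 and 6. Without the nearest-gene rule they were 25, 20 and 24 of 95. No paired analysis was possible because each group has a single deposited list, and no replicate could be left out. Unknown depth limits every statement on absence: a peak missing from a list may lie just under the caller's threshold.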
